A study of Mus musculus with 31 samples.

Results

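The colon of mice that had received the food additive E171 for 21 days (CRC + E171) was compared with the colon of time-matched controls (CRC). The comparison was defined by the sample titles and took in 7 of the 31 arrays of the series, 4 from CRC + E171 and 3 from CRC. All mice were BALB/c, 4 to 6 weeks old at the start, and both groups carried the same chemically induced tumour model, so the controls were not healthy mice. They had received an injection of the carcinogen azoxymethane (AOM) and then 2% dextran sodium sulphate (DSS) in the drinking water for 5 days. CRC + E171 mice were gavaged with 5 mg/kg body weight of E171 per day, on 5 days per week, and CRC mice with water. CRC + E171 was made up of 2 males and 2 females, and CRC of 1 male and 2 females, with 1 array per mouse. The comparison addressed which genes differed with E171 at the last sampling of the tumour model.

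AOM is a colon carcinogen that alkylates DNA, and DSS injures the epithelium of the distal colon, so that repeated repair and inflammation favour tumours. E171 is food-grade titanium dioxide, a white pigment of nano- and microparticles that is barely absorbed and passes through the gut. The wall of the distal colon holds epithelium, muscle, nerves, connective tissue and, in places, lymphoid follicles packed with B and T cells. A piece of colon can therefore hold many or few lymphocytes, depending on whether it cuts a follicle. In such bulk tissue, fewer cells of a type and less RNA per cell cannot be told apart.

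Levels below are log2 of the processed signal relative to the array's 75th percentile, so a level of 0 is that percentile. A log2 fold change is CRC + E171 against CRC, and its error is the standard error (SE) of the limma fit. The 75th percentile of the signal lay between 1717 and 3413 in CRC + E171 and between 2896 and 5461 in CRC, and the share of spots clearly brighter than background was 68.2 to 70.9% and 72.4 to 76.3%. No slide held arrays of both groups. The first of 3 scan days held male 1 and female 1 of both groups, and the other arrays of the groups were scanned on separate days.

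Some arrays held markers of pancreatic acinar cells or of squamous epithelium, and the source of these transcripts was not tested. On CRC + E171 female 2 all 10 pancreatic acinar markers measured were high, and Cpa1, a pancreatic carboxypeptidase, stood at 8.09 against -7.07 to -4.98 on the other 6 arrays. The summed level of these markers was 4.01 to 11.4 in CRC + E171 and 3.71 to 4.13 in CRC, and none was called. CRC female 1 held markers of squamous epithelium, with Krt14, a basal keratin, at 6.71, and CRC + E171 female 1 held them at a lower level, with Krt14 at 2.95. The other 5 arrays had Krt14 between -1.50 and -0.67. Of the squamous markers, Krt1 and Dsg3 were not raised on CRC female 1 (-4.56 and -5.98). The summed squamous level was 1.13 to 5.36 in CRC + E171 and 1.31 to 8.36 in CRC, and 0 of 10 squamous markers were called.

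Lymphocyte markers also varied from array to array. The median of the B and plasma cell list, relative to each gene's mean, was 1.05, -2.37 and 2.89 in CRC (male 1, female 1 and female 2) and -0.29, 0.75, -1.46 and -0.26 in CRC + E171 (male 1, male 2, female 1 and female 2). Both the highest and the lowest arrays were controls. The summed level of the 12 B and plasma cell markers was 2.50 to 5.66 in CRC and 4.80 to 5.56 in CRC + E171, and that of the 13 T and NK cell markers was 1.10 to 3.85 and 1.01 to 2.14. Results were therefore also computed without CRC + E171 female 2 and CRC female 1, the acinar- and the squamous-rich array. CRC + E171 female 1 remained in that fit, so that it was not free of squamous transcripts. CRC female 1, which the fit leaves out, was also the lowest array by median of the T and NK cell list (-0.88), as of the B and plasma cell list. The controls left, CRC male 1 and CRC female 2, were the highest arrays for both medians. That fit is therefore no check of genes of lymphocytes.

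**Figure D1:**
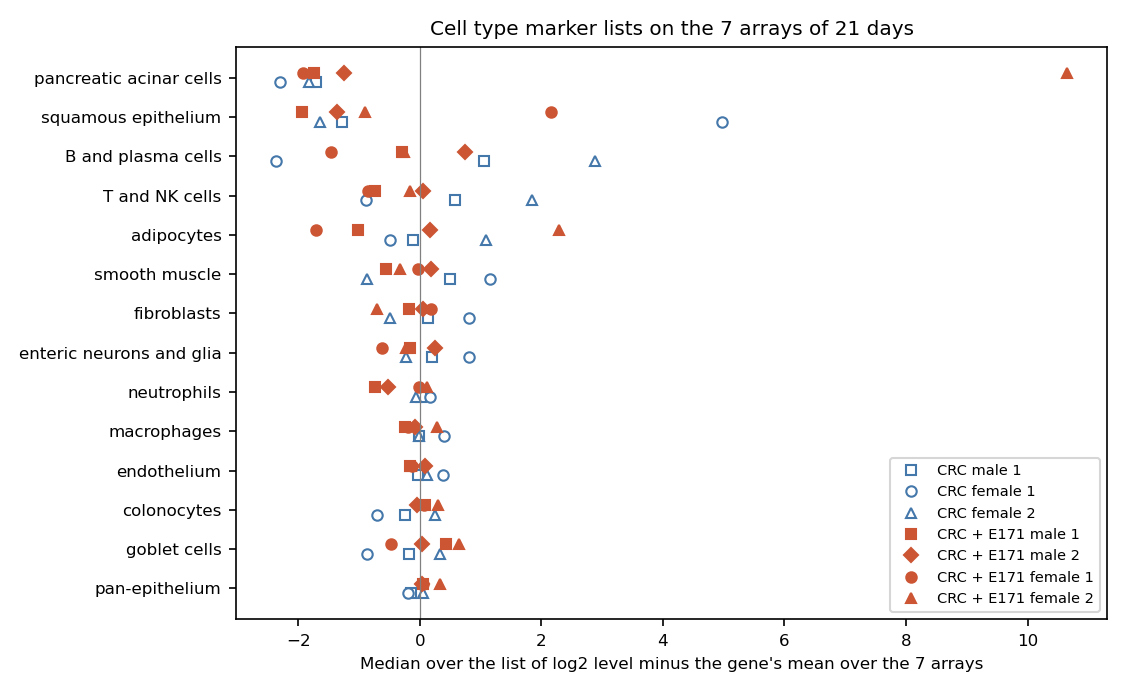
Cell type marker lists on the 7 arrays of 21 days. Each point is an array, placed at the median over the list of a gene's log2 level minus its mean over the 7 arrays, with open symbols for CRC and filled symbols for CRC + E171. CRC + E171 female 2 lies at 10.65 for pancreatic acinar markers, and CRC female 1 at 4.98 for squamous markers.

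Of 19797 genes tested, 528 passed the threshold for a differentially expressed gene (DEG), a linear fold change of 1.5 or more with an unadjusted limma p under 0.05. This was 2.67% of the genes. With E171, 167 DEG were up-regulated (0.844% of the genes) and 361 were down-regulated (1.82%). None had a p under 0.05 after Benjamini-Hochberg adjustment in limma, the smallest being 0.639, and 1149 genes (5.80%) had an unadjusted p under 0.05. "Rose" and "fell" below mean that a gene was a DEG. DEG named below had a limma adjusted p of 0.854 or more, except Gm11747. The arrays of the groups did not overlap for 292 DEG (1.47% of the genes), and for 1586 genes in all (8.01%). With a block for sex and replicate number (the replicate block), 837 DEG were found, 1.67% of the genes higher and 2.56% lower, so that 39.5% were up-regulated, but again none after adjustment (smallest limma adjusted p = 0.145).

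Which direction prevailed depended on the scaling and on single arrays. Up-regulated genes made up 31.6% of the DEG at the 75th percentile scaling, 40.0% after quantile normalization, 74.9% after normexp background correction and 5.92% with the authors' values. The median log2 fold change of all genes was 0.02, 0.01, 0.11 and -0.10 under these scalings. Without CRC + E171 female 2 and CRC female 1, 587 genes were called, of which 9.54% were up-regulated. That set held 170 of the 361 down-regulated DEG but 26 of the 167 up-regulated DEG. Among the genes described below, Timd4, Il21r, Il16, Fcrl5, Cd22, Cd247, Camk4, Fmnl1, Mndal, Egr3, Zfp36l1, Nlgn1, Nlgn3, Gnb3, Ppp3cc, Chrna2, Pacsin1, Atxn10, Slc22a16, Exosc3, Ift20, Klf16 and Ppp4c were still called. Lef1, C4a, C1ra, Tap1, Erap1, Tlr7, Il18rap, Ackr2, Prkcb, Egr1, Foxd3, Loxl3, Cnn2, Itga5, Gad1, Akap5, Art4, E2f4, Xkrx, Otop2, Duoxa2, Higd2a, Lamtor2, Tnfsf13os, S100a13, Col28a1, Olfr983, Tas2r104, the antioxidant genes and the respiratory chain and ribosomal genes were no longer called. Of these, Lef1, Cnn2 and Gad1 had a fold change that was not smaller without the arrays (-1.77, -0.89 and -0.72 in place of -1.69, -0.86 and -0.67), Foxd3, E2f4, C4a, Tap1 and Egr1 went from -1.38, -1.52, -1.52, -1.43 and -1.25 to -1.22, -1.33, -1.26, -1.15 and -1.02, and Erap1 and Itga5 from -0.66 and -1.35 to -0.20 and -0.55. Leaving out CRC female 1 alone gave -0.59 for Itga5, -0.59 for Ackr2, -0.50 for Loxl3 and 0.30 for Txnrd1, and leaving out CRC + E171 female 2 alone gave -0.32 for Erap1, 0.41 for Atp5g2 and 0.42 for Uqcrh, none of them called. Within the first scan day, 781 genes were called and 17.8% of them were up-regulated.

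With a single array left out, 228 to 387 of the 528 DEG were called, fewest without CRC female 1 and most without CRC + E171 female 1. Of the genes described below, Exosc3, Ppp4c, Lamtor2, S100a13, Tas2r104, Olfr983, Fcrl5, Chrna2, Zfp36l1, Pacsin1, Slc22a16, Atxn10, Nlgn1, Olfr330 and Gm11747 were called with each of the 7 arrays left out in turn. Without CRC female 2, the control highest for B and T cell markers, Mndal (-1.24), Tlr7 (-0.66), Xkrx (-1.26), Cnn2 (-0.72), Gad1 (-0.69), Akap5 (-0.74), Ppp3cc (-0.49) and Ift20 (0.57) were not called, nor were the genes for which this is given below.

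The calls of several genes described below also changed with the scaling or with the choice of probe. Of the 167 up-regulated DEG, 90 were called after quantile normalization and 35 with the authors' values, and of the 361 down-regulated DEG 260 and 334. Ift20, Higd2a, Lamtor2, Znrd1, Fam104a, Jchain, the antioxidant genes and most of the respiratory chain and ribosomal genes named below were not called under either of these scalings. After quantile normalization this also held for Itga5, Erap1, Tlr7, Il16, Gad1, Ppp3cc, Xkrx, Evi2 and Zfyve28, and with the authors' values for Klf16, S100a13, Smug1 and Gad1. After normexp Fmnl1, Camk4, Fcrl5, Cd22, Cd247, Il16, Il18rap, Ackr2, Erap1, Egr3, Nlgn3, Col28a1, Loxl3, Gad1, Akap5, Gnb3, Ppp3cc, Xkrx, Otop2, Znrd1, Smug1 and Gm11747 kept their direction but were not called. With the brightest probe of each gene in place of the mean of its probes, Tap1, Erap1, Tlr7, Il21r, Il16, Gad1, Ppp3cc, Pacsin1, Zfp36l1, Smug1 and Txnrd1 were likewise not called.

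The fold change also moved with the brightness of the gene. In the dimmest decile of the genes the median log2 fold change was -0.12 and in the brightest decile 0.26. After quantile normalization these medians were -0.07 and 0.06, and with the authors' values -0.26 and -0.00034. The brightest decile held 68 of the 167 up-regulated DEG and 4 of the 361 down-regulated DEG. The part of scaling in the results below was not tested beyond the values under each scaling.

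**Figure D2:**
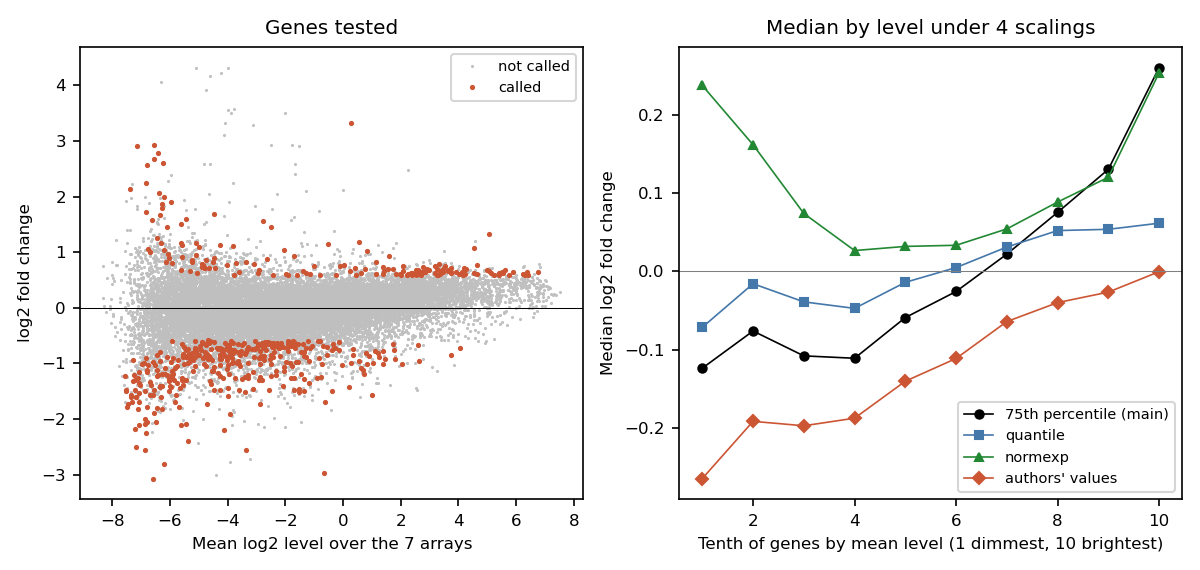
Fold change and level. Left, the log2 fold change of each gene (CRC + E171 against CRC) against its mean log2 level over the 7 arrays, with DEG in orange. Right, the median log2 fold change of each decile of the genes by mean level under 4 scalings, which runs from -0.12 to 0.26 for the main scaling.

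Lef1, a transcription factor of T cell development and of the Wnt pathway, was at -0.15, -0.25 and 1.39 in CRC and at -1.66, -0.57, -1.22 and -2.0 in CRC + E171 (arrays in the order given for the B cell list). Each CRC + E171 array was below each control, and the highest array was CRC female 2, which was also the highest for B and T cell markers. Lef1 fell by 1.69 ± 0.72 on the log2 scale (± SE). Its log2 fold change was -0.28 with no filter on the probes and -1.16 without CRC female 2, and it was called in neither. An exact two-sided permutation test of 7 arrays (35 regroupings) cannot give a p below 0.0571, which is its value for any gene whose groups do not overlap. Since many of the genes below were named for not overlapping, that p is no further evidence for them.

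Timd4, a receptor for phosphatidylserine on macrophages that take up dying cells, was at -3.69, -3.41 and -2.17 in CRC and between -4.93 and -4.21 in CRC + E171. It fell by 1.58 ± 0.55, and its log2 fold change was -1.89 without the acinar- and squamous-rich arrays. Il21r, the receptor of the T cell cytokine interleukin 21, was at -2.11, -3.08 and -1.37 in CRC and between -3.87 and -3.19 in CRC + E171, with a log2 fold change of -1.29 ± 0.53. Without those arrays it was -1.84. For both genes the groups did not overlap, and the fold change within the first scan day was -1.36 and -1.18. Without CRC female 2 it was -1.12 and -0.88. Neither gene was called in either of these fits.

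Fcrl5, an Fc receptor-like protein of B cells, was at -1.19, -2.07 and -2.08 in CRC and at -3.87, -2.58, -2.84 and -2.73 in CRC + E171. It fell by 1.23 ± 0.35, and its log2 fold change was -1.46 without the acinar- and squamous-rich arrays. Cd22, an inhibitory receptor of B cells, overlapped because CRC female 1 was as low as the CRC + E171 arrays, at -4.32 (log2 fold change -1.01 ± 0.46). Cd247, the zeta chain of the T cell receptor, overlapped for the same array, at -4.65 (-1.32 ± 0.56). Without the acinar- and squamous-rich arrays these fold changes were -1.73 and -1.86, in a fit that leaves out this low control. Without CRC female 2 they were -0.65 and -0.80, and neither gene was called.

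Further DEG picked by the naming rule, from different lists or from none, were lower as well. Fmnl1, a formin of blood cells, had a log2 fold change of -1.48, Prkcb, a protein kinase C of the B cell receptor pathway, -1.28, and Camk4, a calcium/calmodulin-dependent kinase of T cells and neurons, -1.30, each without overlap. Fmnl1 was at -2.20 on CRC female 2 against -4.12 and -3.90 on the other controls, and without that array its fold change was -0.88 and not called. Prkcb was -0.92 without the 2 arrays and no longer passed the threshold. Il16, a chemoattractant of CD4+ cells, was at -1.0 and overlapped. Without CRC female 2 Camk4 was -1.09 and Il16 -0.68, and neither was called. Jchain, which joins the units of secreted IgA and IgM and was picked with its values in view, rose by 1.09 ± 0.52. The low array was again CRC female 1, at 2.33 against 4.49 to 5.39 on the other 6 arrays, and the log2 fold change without the 2 arrays was 0.29. Mzb1, the other marker of the B and plasma cell list above zero, was at 1.06 and not called. Its lowest array was also CRC female 1, at -2.51.

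Lymphocyte markers were mostly below zero, 10 of the 12 B and plasma cell markers and 13 of the 13 T and NK cell markers, but few were called. Of the 12 B and plasma cell markers 1 was called higher (Jchain) and 1 lower (Cd22), against 0.844% and 1.82% of all genes, and the median log2 fold change was -0.77. Of the 13 T and NK cell markers 1 was called lower (Cd247), and the median was -0.95. No marker of either list had groups that did not overlap, and the lists overlapped through CRC female 1, the squamous-rich control. The T and NK cell median was 0.58 on CRC male 1 and 1.84 on CRC female 2, against -0.86 to 0.06 in CRC + E171, and -0.88 on CRC female 1. For the B and plasma cell list, too, both other controls lay above every CRC + E171 array. Of the genes above, Lef1, Timd4, Il21r, Fmnl1, Camk4, Il16, Cd22 and Cd247 were, like the medians of both lists, highest on CRC female 2. The part of lymphoid tissue in the fall of the genes above was not tested.

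Complement, a cascade of plasma and tissue proteins that mark targets for uptake, had 26 of 33 genes below zero and a median log2 fold change of -0.38. C4a was at -1.21, -0.28 and -0.45 in CRC and at -2.95, -1.69, -1.62 and -2.39 in CRC + E171, without overlap, and fell by 1.52 ± 0.59. C1ra, a serine protease of the first complement component, fell by 1.01 ± 0.48 from 1.67 or more in CRC to 1.12 or less in CRC + E171. Both have a near-identical paralogue in the mouse (C4b, C1rb), from which a probe may not separate them. Of the 33 genes 2 fell, against 1.82% of all genes, and 8 did not overlap, all of them lower, against 8.01% of all genes. With the replicate block 4 were called, all lower, against 2.56% of all genes. The list median of every CRC array (0.20 to 0.27) was above that of every CRC + E171 array (-0.32 to -0.13). Without the acinar- and squamous-rich arrays the median was -0.40 and none of the 33 was called.

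Antigen presentation by MHC class I carries peptides from the cytosol to the cell surface. Tap1, a subunit of the peptide transporter, was at 0.61, 1.56 and 0.90 in CRC and at -0.26, -0.73, -0.19 and -0.42 in CRC + E171. The groups did not overlap, and Tap1 fell by 1.43 ± 0.61. Erap1, the peptidase that trims the peptides, fell by 0.66 ± 0.30 with CRC + E171 female 2 lowest, at -5.24, and was -0.20 without the 2 arrays. Of 18 class I genes 2 fell and none rose, against 1.82% and 0.844% of all genes, with a median of -0.39, while none of 12 class II genes was called, with a median of -0.58. Among the controls the class II median of an array ranged from -0.64 on CRC female 1 to 1.06 on CRC female 2. Without CRC female 2 the class I median was -0.15 and the class II median -0.0020. Without the acinar- and squamous-rich arrays, CRC female 1 among them, they were -0.52 and -1.08.

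Interferon-stimulated genes had a median log2 fold change of -0.42 and 29 of 36 below zero, but none was called. CRC + E171 male 1 was the highest of the 7 arrays, at 0.40, and the other 3 CRC + E171 arrays the lowest, at -0.60 to -0.37, so the list overlapped. Without CRC + E171 male 1 the list median was -0.70, and within the first scan day it was -0.06. The authors' values, the scan day block and the fit of the 7 arrays alone called 3, 4 and 8 of its genes lower. In these fits 652, 515 and 601 of all genes were called lower. Mndal, an interferon-inducible gene outside that list, was at 0.32, 0.08 and 0.95 in CRC and at -0.73, -0.69, -0.94 and -1.77 in CRC + E171. It fell by 1.49 ± 0.55 without overlap, and its log2 fold change was -1.43 without the 2 arrays. Tlr7, an endosomal receptor for single-stranded RNA, fell by 0.66 ± 0.29. It was the only one of 28 genes of the Toll-like receptor pathway that was called (2 with the replicate block). Of all genes 1.82% and 2.56% were lower, and the list median was -0.06. Interleukins and their receptors had 3 of 59 genes that fell, Il18rap, Il21r and Il16, against 1.82% of all genes, and with the replicate block 4 were lower and 1 higher, against 2.56% and 1.67%. The list median of -0.24 was -0.13 without CRC female 2 and -0.013 after normexp. There 1 gene of the list was called higher and 2 lower, against 266 and 89 of all genes. Il18rap, the accessory chain of the interleukin 18 receptor, was well above background on all 3 CRC arrays and on no CRC + E171 array. At the main scaling this bounds its fold at 1.66 for these arrays, higher in CRC. After normexp its log2 fold change was -0.33. Chemokines and their receptors had 1 of 51 that fell, Ackr2 (log2 fold change -1.04), a decoy receptor that removes chemokines, which is a share near that of all genes. The chemokine median of -0.28 was -0.13 without CRC female 2 and -0.07 after normexp.

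**Figure D3:**
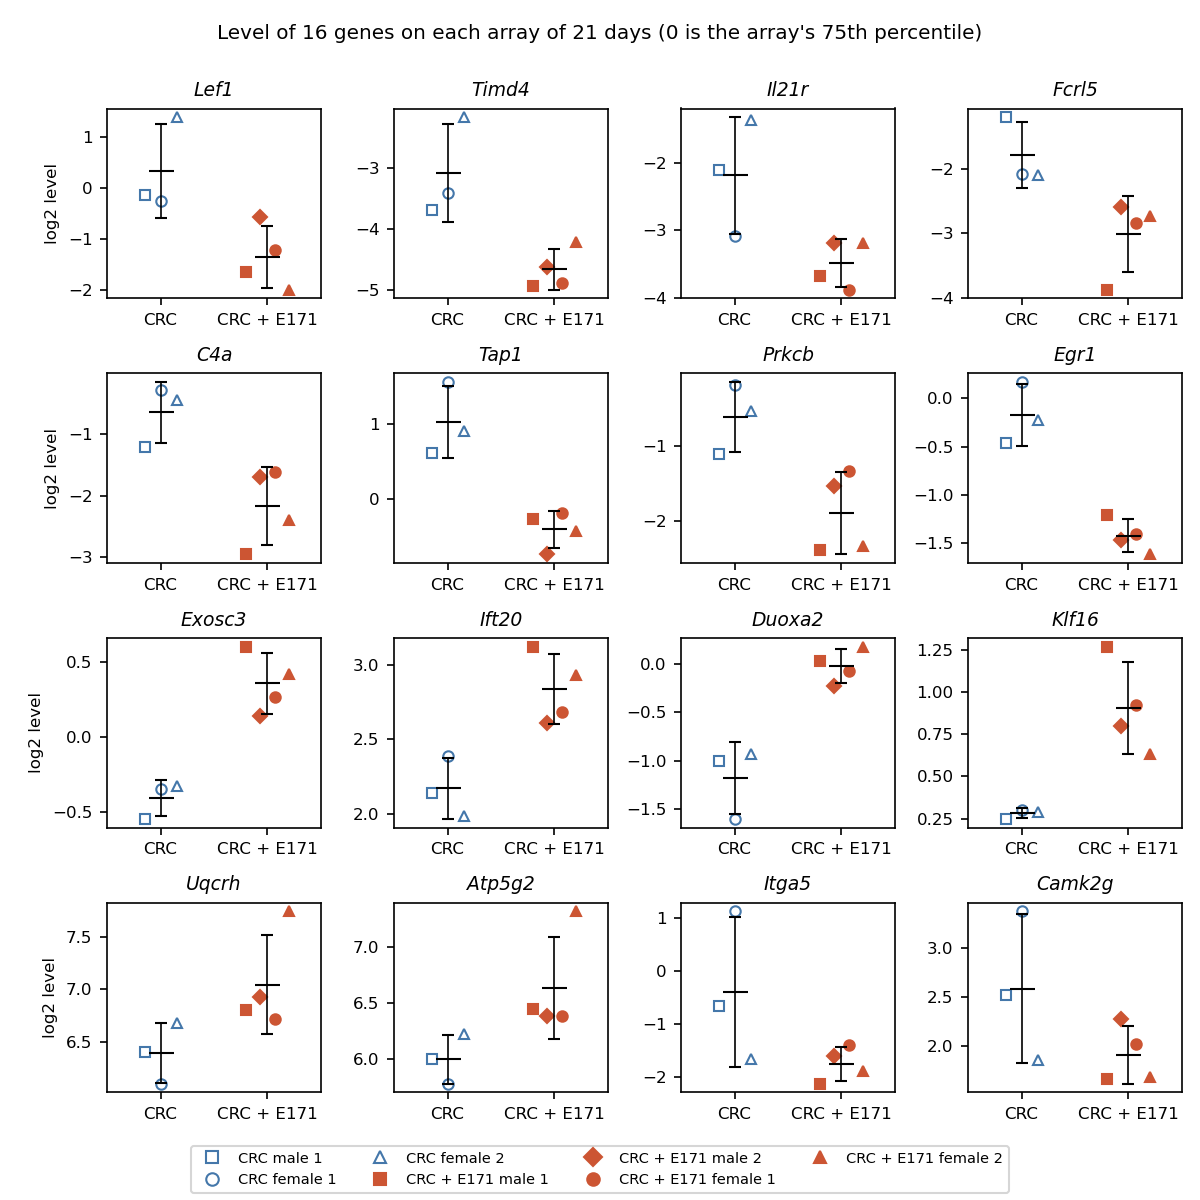
Log2 level of 16 genes on the 7 arrays of 21 days. Points are arrays (open, CRC; filled, CRC + E171), and the bars give the mean and SD of 3 CRC and 4 CRC + E171 arrays. Exosc3, Ift20 and Klf16 are higher and Tap1, C4a and Egr1 lower on every CRC + E171 array, whereas Itga5 and Camk2g overlap.

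Immediate-early genes are switched on within minutes of a stimulus such as a growth factor or the handling of tissue. Egr1, a zinc finger factor, was at -0.46, 0.17 and -0.23 in CRC and at -1.21, -1.46, -1.41 and -1.62 in CRC + E171. It fell by 1.25 ± 0.52 without overlap. Its relative Egr3 fell from -5.05 or more in CRC to -5.36 or less in CRC + E171, where it exceeded background on 1 of 4 arrays, so that no fold is given, and it was not called without CRC female 2. Nab2, a corepressor that binds EGR proteins, did not overlap either (-0.26 to 0.46 in CRC and -0.89 to -0.39 in CRC + E171) but was not called (log2 fold change -0.75 ± 0.42). The 25 genes of the list besides Egr1 and Egr3 were not called, so that 2 fell, against 1.82% of all genes, and the list median was -0.17. Zfp36l1, an RNA-binding protein that speeds the decay of short-lived mRNAs, fell by 0.78 ± 0.22 without overlap.

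Of 51 cell adhesion molecules 3 fell, Cd22 and the synaptic adhesion proteins Nlgn1 and Nlgn3 (log2 fold change -0.73), with a list median of -0.59, against 1.82% of all genes. The fit with the replicate block called 6 of the 51, all lower, against 2.56% of all genes. Nlgn1 was well above background on 2 of 3 CRC arrays and on no CRC + E171 array, and its log2 fold change was -0.074 after normexp and -0.27 with no filter, neither called. Extracellular matrix genes were mostly below zero, and few were called. Of 40 collagen chains 1 fell (Col28a1), of 25 integrins 1 (Itga5), of 47 glycoproteins and elastic fibre genes 1 (Loxl3), and of 23 matrix metallopeptidases and inhibitors none, with medians of -0.34, -0.32, -0.30 and -0.35. These counts lie near the 1.82% of all genes that fell. With the replicate block, where 2.56% of all genes were lower, the integrins and glycoproteins had 2 and 3 genes called lower. Loxl3, a lysyl oxidase that cross-links collagen and elastin, fell by 0.76 ± 0.26 without overlap. Itga5, the fibronectin receptor chain, was at -0.66, 1.12 and -1.66 in CRC and between -2.13 and -1.39 in CRC + E171. The arrays overlapped, and the log2 fold change of -1.35 ± 0.65 became -0.55 without the acinar- and squamous-rich arrays. CRC female 1 was the highest array for collagens (0.58), glycoproteins (0.62), metallopeptidases (0.52) and smooth muscle markers (1.16). Without the acinar- and squamous-rich arrays the medians of collagens, integrins, glycoproteins and metallopeptidases were -0.13, -0.17, 0.0028 and -0.15. After normexp they were -0.14, -0.10, -0.19 and -0.0082. Without CRC female 1 alone they were -0.14, -0.16, -0.10 and -0.02.

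Of 31 enteric neuron genes none was called, and of 14 glial genes 1 fell (2 with the replicate block, against 1.82% and 2.56% of all genes), Foxd3, a transcription factor of the neural crest. Foxd3 was at -3.72, -3.49 and -4.17 in CRC and between -5.60 and -4.90 in CRC + E171, without overlap, and fell by 1.38 ± 0.56. The glial median of -0.46 became 0.04 without the 2 arrays, and CRC female 1 was at 1.05 and CRC female 2 at -0.53. Of 57 synaptic genes 2 fell, Camk4 and Gad1, an enzyme of GABA synthesis (log2 fold change -0.67, and -0.069 after normexp), against 1.82% of all genes. Cnn2, a calponin of smooth muscle and other cells, fell by 0.86 ± 0.35 without overlap. It was the only one of 49 actin and smooth muscle genes that was called (2 with the replicate block), against 1.82% and 2.56% of all genes. Chrna2, a nicotinic acetylcholine receptor subunit outside these lists, was at -1.39, -2.69 and -2.09 in CRC and at -3.59, -3.93, -3.46 and -2.44 in CRC + E171 (log2 fold change -1.30 ± 0.36).

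G protein and cAMP signalling had 5 of 99 genes that fell, and none that rose, against 1.82% and 0.844% of all genes, with a median of -0.02 (0.01 after normexp). They were Prkcb, Akap5, an anchor of protein kinase A (-0.84), Gnb3, a G protein beta subunit (-0.82), Ppp3cc, a catalytic chain of calcineurin (-0.68), and Gna12, a G protein alpha subunit (-0.63). Akap5 and Gna12 overlapped, and Gnb3 was above background in 2 of the 4 CRC + E171 arrays. Signalling genes that the study discussed for this exposure gave mixed values. Camk2g, a calcium/calmodulin-dependent kinase, was at 2.52, 3.37 and 1.86 in CRC and at 1.67, 2.28, 2.02 and 1.69 in CRC + E171, with overlap and a log2 fold change of -0.67 ± 0.38. With the block of sex and replicate number it was -0.76 and passed the threshold. Camk2g was also called after quantile normalization (-0.79), with the authors' values (-0.86), with array weights (-0.66) and within the first scan day (-1.10). Without the acinar- and squamous-rich arrays it was -0.20 and not called.

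Gna11, a G protein alpha subunit, lay between 3.01 and 3.1 in CRC and between 2.90 and 3.25 in CRC + E171. Its log2 fold change of 0.04 ± 0.35 was -0.12 after quantile normalization and -0.23 with the authors' values. Akap12, a scaffold of protein kinases A and C, was at -0.49 ± 0.32, Esr1, the oestrogen receptor alpha, at -0.29 ± 0.39 and Cyfip1, a regulator of translation and actin, at -0.19 ± 0.15, all with overlap and not called. Htr7, a serotonin receptor, did not overlap (-3.79 to -3.61 in CRC and -5.01 to -4.14 in CRC + E171) but was not called (-0.91 ± 0.59). Htr1b, another serotonin receptor, was at 0.14 ± 0.44. None of 13 genes of serotonin synthesis, transport and receptors was called.

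Other large decreases without overlap belonged to genes of various roles. Art4, which carries the Dombrock blood group, fell by 1.91 ± 0.74, E2f4, a repressor of the cell cycle, by 1.52 ± 0.65, and Xkrx, of the XK family of membrane proteins, by 1.47 ± 0.70. Xkrx was not called with the block of sex and replicate number, although its log2 fold change was still -1.47. Of the proliferation list 0 of 35 genes were called. Krt16, a keratin of stressed squamous epithelium, fell by 2.96 ± 1.22, but its high value was on CRC female 1 alone, at 6.43 against -2.29 to -1.43 on the other arrays, and the log2 fold change without the 2 arrays was -0.43.

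For 64 genes the signal was well above background on all 3 CRC arrays and on none of the 4 CRC + E171 arrays, and no gene showed the opposite. CRC arrays had more spots above background in general, as given above. At the main scaling the bound was 2.58-fold higher in CRC for Otop2, a proton channel of the colon epithelium. It was 2.28-fold for Krtap11-1, a hair keratin-associated protein, and 2.24-fold for Evi2. Krtap11-1 was not called, and Evi2 was not called without CRC female 2. These bounds set the mean of the bright group against the lowest signal that counted as above background on each dim array. They describe these arrays at the main scaling and carry no sampling error. After normexp the log2 fold changes of Otop2, Krtap11-1 and Evi2 were -0.85, -0.47 and -0.43, and none was called.

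Among the up-regulated genes, Exosc3, a cap subunit of the RNA exosome, had the smallest limma p. It was at -0.55, -0.35 and -0.33 in CRC and at 0.60, 0.14, 0.27 and 0.42 in CRC + E171. Every CRC + E171 array was above every control, and Exosc3 rose by 0.77 ± 0.17. The log2 fold change was 0.92 in males, 0.69 in females, 0.89 within the first scan day and 0.78 without the acinar- and squamous-rich arrays.

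Ift20, a subunit of the transport complex of cilia, was at 2.14, 2.39 and 1.98 in CRC and at 3.12, 2.61, 2.68 and 2.93 in CRC + E171, and rose by 0.67 ± 0.16. Klf16, a zinc finger factor, was at 0.25, 0.30 and 0.29 in CRC and at 1.27, 0.80, 0.92 and 0.63 in CRC + E171, and rose by 0.63 ± 0.17. Neither overlapped, and without the acinar- and squamous-rich arrays their log2 fold changes were 0.74 and 0.73. Ift20 was 0.53 after quantile normalization and 0.48 with the authors' values, and Klf16 was 0.56 with the authors' values, all below the fold threshold. Znrd1, a subunit of RNA polymerase I, rose by 0.62 ± 0.15, Fam104a by 0.69 ± 0.18 and Smug1, which removes uracil from DNA, by 0.60 ± 0.16, also without overlap. Without those arrays they were 0.42, 0.47 and 0.36, below the fold threshold. Smug1 was 0.087 with the brightest of its probes.

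Duoxa2 is the maturation factor of the epithelial oxidase DUOX2, which makes hydrogen peroxide at the mucosal surface. It was at -1.0, -1.60 and -0.93 in CRC and at 0.03, -0.23, -0.07 and 0.18 in CRC + E171. Duoxa2 rose by 1.16 ± 0.49, and its log2 fold change lay between 1.12 and 1.18 under the other 3 scalings. Tnfsf13os, an antisense transcript of Tnfsf13, rose by 0.94, Ppp4c, a protein phosphatase, by 0.83, S100a13, a calcium-binding protein, by 0.79, Higd2a, an assembly factor of cytochrome oxidase, by 0.77 and Lamtor2, of the lysosomal Ragulator complex, by 0.76. CRC + E171 female 2 was the highest array for each of these 5 genes and for Duoxa2. Higd2a and Lamtor2 were 0.49 and 0.56 after quantile normalization and 0.37 and 0.49 with the authors' values, and S100a13 was 0.52 with the authors' values, none of them called. Cfap44, a protein of cilia with 3 probes, rose by 0.82 without overlap, but its log2 fold change was 0.0022 with the brightest probe and it was not called.

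Energy metabolism and protein synthesis were above zero almost throughout. Of 86 subunits of the respiratory chain 80 were positive, 10 rose and none fell, with a median log2 fold change of 0.39. Of all genes 52.0% were positive and 0.844% rose. Mitochondrial ribosomal proteins had 4 of 77 that rose (Mrpl12, Mrpl33, Mrpl34 and Mrps12) and a median of 0.34, and cytosolic ribosomal proteins 2 of 80 (Rpl19 and Rpl37) and a median of 0.40. With the replicate block the respiratory chain, mitochondrial and cytosolic ribosomal lists had 23, 5 and 8 genes called, all higher, against 1.67% of all genes. These lists were added after the data had been seen. Uqcrh, a subunit of complex III, was at 6.40, 6.10 and 6.68 in CRC and at 6.80, 6.92, 6.71 and 7.74 in CRC + E171, without overlap, and rose by 0.65 ± 0.24. Atp5g2, a subunit of the ATP synthase ring, was at 6.0, 5.78 and 6.22 in CRC and at 6.45, 6.38, 6.39 and 7.32 in CRC + E171, and rose by 0.64 ± 0.20.

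CRC + E171 female 2, the array with pancreatic transcripts, was far above the others in these lists. The respiratory chain median was 0.82 on that array, -0.07 to 0.01 on the other CRC + E171 arrays and -0.41 to -0.09 on the CRC arrays. Without it the median log2 fold change was 0.22 and 1 of the 86 genes was called. After quantile normalization the median was 0.12 with 1 gene called higher, and with the authors' values it was 0.06 with none. For cytosolic ribosomal proteins these medians were 0.17, 0.04 and 0.02. Ndufs1, a complex I subunit, rose by 1.18, with CRC female 1 at -2.55 against 0.52 to 1.33 on the other arrays. Its log2 fold change without the 2 arrays was 0.14.

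**Figure D4:**
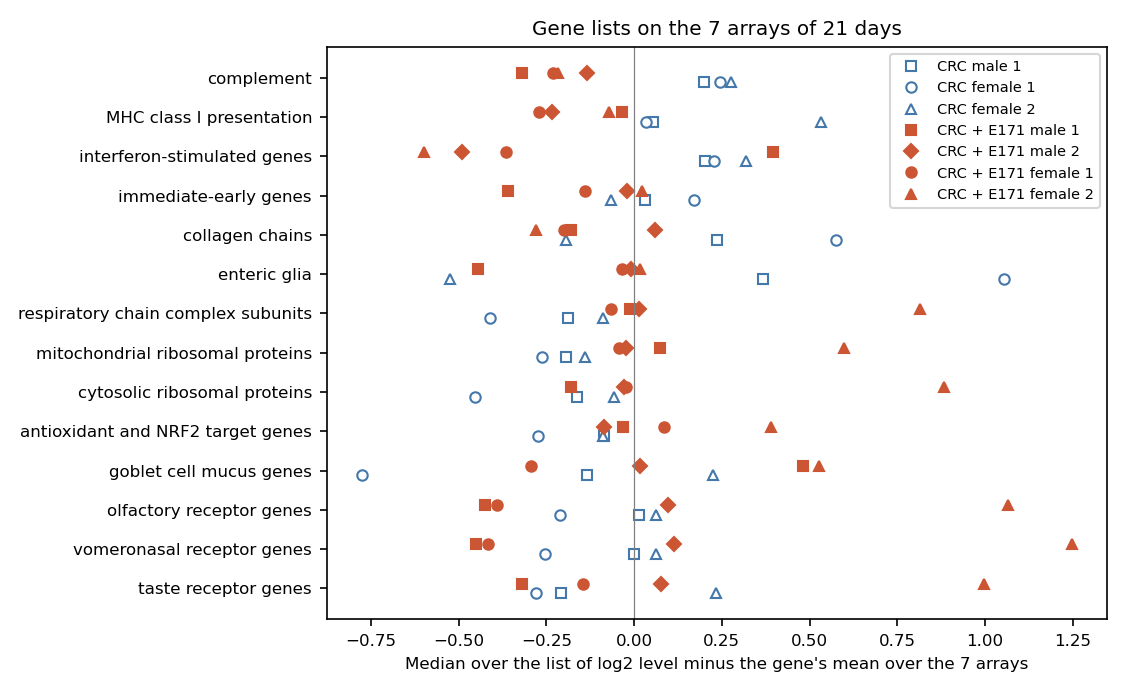
Gene lists on the 7 arrays of 21 days. Each point is an array at the median over the list of a gene's log2 level minus its mean over the 7 arrays (open, CRC; filled, CRC + E171). Complement separates the groups (0.20 to 0.27 in CRC and -0.32 to -0.13 in CRC + E171), whereas CRC + E171 female 2 alone lies at 0.82 for the respiratory chain and at 1.07 for olfactory receptors.

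Promoters of nuclear genes for the respiratory chain often carry sites for NRF1 and ETS factors such as GABPA, and those of interferon-inducible genes an interferon-stimulated response element (ISRE). The sequences below are shown as examples of the genes described here whose promoters hold such letters. They are RefSeq promoters of GRCm38.p6, 300 bases that span the start, read 5′ to 3′ on the gene's strand. Capitals mark the palindromic NRF1 motif in Atp5g2, an ETS motif (CCGGAAGT, on either strand) in Uqcr11, Uqcrh and Ift20, and an ISRE motif in Mndal. The windows are chr15:102670998-102671297 on the minus strand for Atp5g2, chr10:80406772-80407071 minus for Uqcr11, chr4:116075021-116075320 minus for Uqcrh, chr11:78536111-78536410 plus for Ift20 and chr1:173880138-173880437 minus for Mndal. The motifs start 42, 66, 11, 52 and 36 bases before the gene's start.
Atp5g2: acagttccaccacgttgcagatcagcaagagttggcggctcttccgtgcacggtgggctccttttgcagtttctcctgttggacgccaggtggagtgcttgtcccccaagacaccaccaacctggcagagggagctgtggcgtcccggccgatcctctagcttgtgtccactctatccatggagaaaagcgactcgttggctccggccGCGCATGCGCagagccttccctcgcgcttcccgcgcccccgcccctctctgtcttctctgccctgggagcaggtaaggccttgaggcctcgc
Uqcr11: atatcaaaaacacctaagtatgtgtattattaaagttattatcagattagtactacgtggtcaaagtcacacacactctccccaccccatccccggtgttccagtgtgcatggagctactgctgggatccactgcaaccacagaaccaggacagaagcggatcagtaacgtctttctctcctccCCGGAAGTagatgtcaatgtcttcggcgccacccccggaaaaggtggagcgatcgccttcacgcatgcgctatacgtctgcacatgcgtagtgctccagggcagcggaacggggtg
Uqcrh: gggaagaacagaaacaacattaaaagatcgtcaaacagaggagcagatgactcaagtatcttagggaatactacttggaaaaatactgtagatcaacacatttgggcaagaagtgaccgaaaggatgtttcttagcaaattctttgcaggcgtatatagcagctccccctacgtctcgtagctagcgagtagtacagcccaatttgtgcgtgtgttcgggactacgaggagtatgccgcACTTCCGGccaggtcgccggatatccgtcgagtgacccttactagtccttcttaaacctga
Ift20: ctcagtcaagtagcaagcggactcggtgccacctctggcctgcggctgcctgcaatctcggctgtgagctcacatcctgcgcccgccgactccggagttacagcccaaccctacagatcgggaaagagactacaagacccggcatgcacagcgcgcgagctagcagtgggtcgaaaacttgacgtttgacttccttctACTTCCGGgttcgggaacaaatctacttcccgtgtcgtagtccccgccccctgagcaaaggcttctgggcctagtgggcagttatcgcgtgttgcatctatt
Mndal: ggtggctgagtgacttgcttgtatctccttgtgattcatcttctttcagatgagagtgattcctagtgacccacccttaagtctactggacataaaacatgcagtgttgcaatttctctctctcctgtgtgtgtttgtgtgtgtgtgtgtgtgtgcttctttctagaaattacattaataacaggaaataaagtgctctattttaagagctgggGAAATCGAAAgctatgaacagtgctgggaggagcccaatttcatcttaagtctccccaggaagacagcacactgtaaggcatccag

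Among all 27025 promoters, the ETS motif was found in 4.00%, the NRF1 motif in 0.977% and the ISRE motif in 3.49%, on either strand. Of the 167 up-regulated DEG 138 had a promoter sequence, and 15 of these (10.9%) held the ETS motif and 5 (3.62%) the NRF1 motif. Of the 361 down-regulated DEG 280 had one, and 7 (2.50%) held the ETS motif, 3 (1.07%) the NRF1 motif and 8 (2.86%) the ISRE motif. The 8 respiratory chain genes that rose and had a promoter sequence held the ETS motif in 2 and the NRF1 motif in 1. The 27025 promoters include those of genes not tested here, and no share among genes of like level was computed. A match describes these letters only, and the shares were not tested.

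Antioxidant genes had 3 of 35 that rose, against 0.844% of all genes, and none that fell. Txnrd1, a thioredoxin reductase and target of NRF2, was at 2.82, 1.62 and 2.52 in CRC and at 3.31, 3.26, 2.88 and 2.42 in CRC + E171, and overlapped (log2 fold change 0.65 ± 0.24). Prdx3, the mitochondrial peroxiredoxin, was at 2.50, 2.04 and 2.42 in CRC and between 2.71 and 3.27 in CRC + E171 and rose by 0.62 ± 0.19. Gclm, the modifier subunit of glutathione synthesis, was between 1.65 and 2.26 in CRC and between 2.54 and 2.75 in CRC + E171 and rose by 0.60 ± 0.24. Prdx3 and Gclm did not overlap. None of the 35 was called after quantile normalization, with the authors' values, or without the acinar- and squamous-rich arrays, where the list median was 0.10, 0.06 and 0.08 in place of 0.32.

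Surface colonocyte, goblet cell, phase II enzyme, tight junction and cytochrome P450 lists had positive medians at the 75th percentile scaling and held no DEG. Surface colonocyte genes had 28 of 33 above zero (median 0.36), goblet cell genes 20 of 21 (0.39), phase II enzymes 37 of 46 (0.29) and claudins and tight junction genes 21 of 30 (0.27), while 70 cytochrome P450 genes had a median of 0.10 (-0.02 with the authors' values). CRC female 1 was the lowest array for colonocyte genes (-0.55) and for goblet cell genes (-0.78). Without the 2 arrays the colonocyte and goblet cell medians were 0.12 and -0.01. Enteroendocrine hormone genes, clock genes and EGF receptor family genes had medians of 0.02, -0.05 and 0.10 and no DEG. With the replicate block 1 phase II enzyme and 1 cytochrome P450 gene were called higher, and 1 tight junction gene and 1 clock gene lower.

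Olfactory receptors form the largest gene family of the mouse, and most members are silent outside the nose. Of 411 measured, 7 rose and 12 fell, against 0.844% and 1.82% of all genes, with a median of 0.10. Olfr983 was at -7.73, -9.13 and -7.40 in CRC and at -4.31, -5.53, -8.32 and -3.48 in CRC + E171, and overlapped. No CRC array and 3 of the 4 arrays with E171 exceeded background, so no fold is given. Olfr330 was well above background on all CRC arrays and on no CRC + E171 array, and Olfr975 was not called (0.94 ± 0.51), but was called after quantile normalization and with the block of sex and replicate number (1.04 in both). The split of the family depended on the scaling, with 26 rising and 7 falling after quantile normalization, 23 and 0 after normexp, and 4 and 19 with the authors' values. The fit with the replicate block called 15 higher and 10 lower, against 1.67% and 2.56% of all genes.

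CRC + E171 female 2 was also the highest array for these dim families. The olfactory median was 1.07 on that array, -0.42 to 0.10 on the other CRC + E171 arrays and -0.21 to 0.06 on the CRC arrays, and the vomeronasal median was 1.25 on it against -0.45 to 0.11. Without that array the olfactory median turned from 0.10 to -0.17, with 2 rising and 16 falling, and the vomeronasal median from 0.24 to -0.18. Of 12 taste receptors 1 rose, against 0.844% of all genes, Tas2r104, a bitter receptor, which was above background on 3 CRC + E171 arrays and no CRC array.

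**Figure D5:**
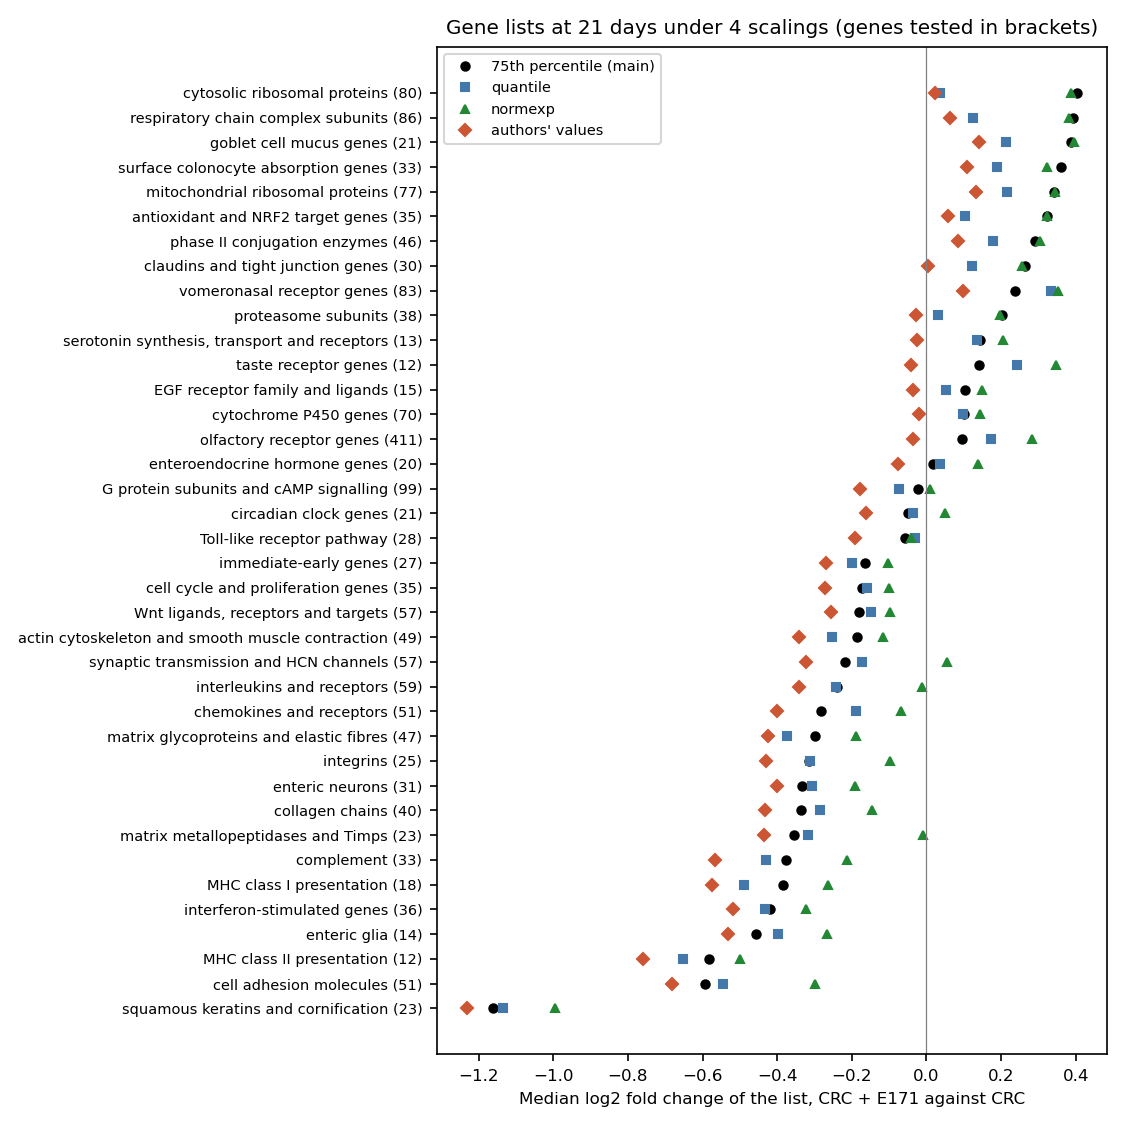
Median log2 fold change of 38 gene lists (CRC + E171 against CRC) under 4 scalings, with the number of genes tested in brackets. Immune and matrix lists lie below 0 under each of them, while cytosolic ribosomal proteins move from 0.40 to 0.02 and olfactory receptors from 0.28 to -0.04.

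With array weights, which let limma give less weight to arrays that deviate from their group, 1371 genes were called and 11 had an adjusted limma p under 0.05. CRC male 1 had a weight of 2.52 and CRC + E171 female 2 a weight of 0.253. The 11 genes were Exosc3, Ift20 and Klf16, which rose, and Fcrl5, Chrna2, Zfp36l1, Atxn10, Zfyve28, Slc22a16, Pacsin1 and Gm11747, which fell. Slc22a16, a carnitine transporter, was at -1.93, -2.89 and -1.67 in CRC and at -3.56, -3.95, -3.26 and -2.85 in CRC + E171 (log2 fold change -1.24 ± 0.33). Pacsin1, a membrane-bending protein of nerve endings, was at 0.84, 0.55 and 1.07 in CRC and at -0.11, -0.05, -0.32 and 0.37 in CRC + E171 (-0.85 ± 0.24), and Atxn10, a cytoplasmic protein of neurons, had a log2 fold change of -0.93 ± 0.26. Atxn10 was -0.20 after normexp and -0.22 with the brightest of its probes, and was called in neither. Zfyve28 went from -0.65 to -0.020 after normexp, -0.29 with a stricter filter and -0.42 with the brightest of its probes, and was called in none of them. Gm11747, a predicted gene, had the smallest p without weights (limma adjusted p = 0.639).

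The effect at 21 days was tested against the mean effect of 2, 7 and 14 days. No gene had an adjusted limma p under 0.05 for this difference (smallest 0.359), and 1131 had an unadjusted p under 0.05. Exosc3 differed from its mean at the earlier days by 0.96 and Egr1 by -1.26, neither past the adjusted threshold. A difference of the effect between females and males had an adjusted p under 0.05 for 1 gene, Zfp976, and an unadjusted limma p under 0.05 for 239. Zfp976, a zinc finger gene measured by a single probe and named here after its values were seen, was at -8.55 on CRC male 1, the only control male, against 1.28 to 2.08 on the other 6 arrays.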

How the data were processed

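RNA of the distal colon was hybridised to one-colour Agilent arrays, which were read with Feature Extraction 10.7.3.1. The authors deposited scanner files with a processed intensity per spot, background-subtracted by that software, and a table of log2 values. According to the methods, the authors removed poor spots, filtered on missing and low values, imputed missing values, merged probes of a gene and fitted limma. The deposited log2 values were used here as an alternative alone, since their normalization is not given in the sources used here.

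Here the processed intensity was divided by the array's 75th percentile and taken to log2. Of 56605 non-control probes, 42787 were kept. In at least 1 group of exposure and day, these were well above background on at least 60% of the arrays. Their mean log2 intensity there was at least 4. Of these, 34344 matched a RefSeq gene by accession, symbol or synonym, and probes of a gene were averaged, which gave 19797 genes. For 56 genes an array without a value was left out of the fit. limma 3.58.1 in R 4.3.3 (with statmod 1.5.0, and data.table in version 1.17.8) was fitted to all 31 arrays, which share an estimate of the spread, and p-values were adjusted over all genes by the Benjamini-Hochberg method. A gene was called at a linear fold change of 1.5 or more with an unadjusted p under 0.05. The code of the fit was run on simulated data with known fold changes, which is no check of the results above. Mice are the replicates, and the p-values measure the spread between these arrays. The number of arrays limits the precision.

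Same-numbered arrays of the groups deviated together (correlation 0.207 for male 1, 0.478 for female 1 and 0.237 for female 2), so the fit was repeated with a block for sex and replicate number. The arrays lay on 8 slides and 3 scan days, and slide as a random block had a correlation of 0.00545.

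Genes were named by a rule: genes that the study discusses for this time, the 8 largest increases and decreases without overlap and the 5 smallest p among well measured genes, up to 4 called genes per list, genes past the adjusted threshold with or without array weights, and the 3 largest bounds. Wnt8b and some receptor and respiratory chain genes that it picked are not described. A further 19 genes were picked with their values in view, among them Jchain, Cd247, Zfp976 and the respiratory chain and ribosomal genes. The comparison, lists and tests were chosen with earlier results of these data known. In all, 25 alternatives were run for the named genes, among them other scalings, filters, probe rules, blocks and array weights, and each array left out in turn. Analysis of only the first scan day, and without the acinar-rich and squamous-rich arrays, was added after seeing the data.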

Additional observations from a re-analysis of the deposited data

Results flagged for a closer look

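In the CRC + E171 group, 18 of 156 named genes and lists had 1 array far from the other 3, by the ratio of its gap to the range, above Dixon's critical value for 4 samples. Chance flags about 1 in 20 independent groups. Some flagged genes were picked with their values in view or belong to lists that were also flagged. The 18 were therefore not set against that share. CRC + E171 female 2 was that array for Atp5g2 (ratio 0.932), Ndufc2 (0.927), Ndufa2 (0.906), Rpl19 (0.887), Ndufs6 (0.872), Mrpl33 (0.864) and Uqcr11 (0.856), where it was high, and for C1ra (0.840), where it was low. The same array was high for pancreatic acinar markers (0.946), epithelial markers (0.935), respiratory chain subunits (0.909) and cytosolic ribosomal proteins (0.853). CRC + E171 male 2 was high for Art4 (0.833), for the Wnt list (0.901) and for endothelial markers (0.851). CRC + E171 female 1 was low for Nlgn1 (0.891) and for erythrocyte markers (0.859), and CRC + E171 male 1 was low for the enteric glia list (0.886).

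The effect of E171 on Zfp976 differed between females and males (limma interaction, adjusted p = 3.83e-07), and the difference rested on the level of the single CRC male array.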

How the results depend on the processing

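The 528 calls became 948 with the array file's gene names, 1371 with array weights, 793 with no filter, 796 in a fit of the 7 arrays alone, 828 in females, 837 with the replicate block, 69 at a log2 fold change of 1.5, 1149 with no fold threshold, and 439 (without CRC male 1) to 890 (without CRC female 2) when an array was left out. The 31.6% share of up-regulated calls became 40.0% (quantile), 74.9% (normexp), 5.92% (authors' values), 57.6% (no filter), 24.5% (7 arrays alone), 57.5% (females), 22.6% (males), 39.5% (replicate block), 26.0% (scan day block), 13.8% (array weights), 60.2% (no fold threshold), 17.8% (first scan day), 9.54% (without the acinar-rich and squamous-rich arrays) and 15.3% to 58.9% (an array left out, lowest without CRC + E171 female 2 and highest without CRC + E171 female 1). No gene passed the adjusted threshold, against 11 with array weights (smallest adjusted p = 0.0310) and 4 in males, where CRC is 1 array assumed to vary like the other groups (8.63e-09). With an array left out the count stayed at 0 and the smallest adjusted limma p lay between 0.170 and 0.998. The sex difference was found for 3 genes after quantile normalization, 3 after normexp, 2 with no filter and 0 with the authors' values. Direction turned for Gna11 (-0.12 quantile, -0.0041 normexp, -0.23 authors' values, -0.16 males, -0.035 array weights, -0.011 without both doubtful arrays, -0.019 to 0.097 with an array left out, lowest without CRC + E171 female 1), Esr1 (0.15 males, 0.17 without both, -0.63 to 0.20 with an array left out, highest without CRC female 1), Htr7 (0.017 no filter), Htr1b (-0.024 authors' values, -0.094 scan day block, -0.028 to 0.34 with an array left out, lowest without CRC female 2), Olfr975 (-0.092 first scan day), Akap5 (0.027 males), Zfp976 (-0.61 authors' values, -0.24 females, -0.15 to 5.16 with an array left out, lowest without CRC male 1) and Ndufs1 (-0.034 to 1.80 with an array left out, lowest without CRC female 1). The cause was not tested. Over the named genes and alternatives, 1801 values kept direction and side of the threshold, 556 kept direction only, 15 newly passed and 20 turned. The replicate block changed the call of Camk2g, Olfr975 and Xkrx among the genes named by the rule. Among the lists it also moved calls from 5 to 6 lower (G protein), 2 to 3 lower (synaptic), 3 to 4 higher (antioxidant), 2 to 3 higher (vomeronasal) and 0 to 1 higher (proteasome), beside the counts given above. Genes near background are limited by the signal, and slide and group cannot be told apart.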
